A study of Mus musculus with 3 samples.

Results

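The genes described are 10 interferon-induced genes. Isg15 and Usp18 belong to the Isg15 pathway, and Isg20 encodes a nuclease. Genes for membrane-associated or secreted proteins are Ifitm3, Ifitm2, Bst2, Ifi27l2a and Lgals3bp, and Ifi44 and Ifi35 are further interferon-induced genes. All 10 were chosen by name as a group. They were rows of both deposited RNA tables, which held 19208 genes for metastasis-bearing and 17453 for naive brains. Immune cells were enriched on Percoll gradients from 1 brain hemisphere of each of 8 female C57Bl/6 mice aged 2 to 3 months, and RNA was counted in single cells as UMIs, barcoded copies of RNA molecules. In 4 mice, a carotid injection of E0771 cells, a mouse mammary carcinoma line, had been given about 2 weeks earlier; the other 4 were naive. Each state was represented by 2 heterozygous (Cx3cr1+/-) and 2 homozygous (Cx3cr1-/-) mice, so every mouse carried at least 1 disrupted copy of Cx3cr1, the fractalkine receptor of microglia, and no wild-type mouse was analysed here. The allele and its construction are not given in the sources used here. The 8 brains were told apart by hashtag antibodies within 1 pooled preparation.

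After barcodes present in both tables were dropped (1138 of each), 8443 cells of metastasis-bearing and 2736 of naive brains were left. The dropped barcodes had a median of 1781.5 hashtag UMIs in the metastasis and 41 in the naive table. Dropping them took out 18.4% of the microglia-like and 19.6% of the monocyte/macrophage-like cells of the metastasis table. Brains contributed 1354 to 2925 cells in the metastasis table and 337 to 957 in the naive table. A total of 101898345 and 20189200 depth-corrected UMIs stood behind them. The naive table held 136 Krt8-high cells, a cluster high in keratin genes, although these mice had received no tumour cells; their median was 50.5 hashtag UMIs. It also held an unnamed cluster of 171 cells, 71.3% of whose deposited barcodes stood in both tables. Neither cluster entered a test, and tests were repeated on cells with at least 100 hashtag UMIs. Clusters were named from marker genes, hence "-like". Per metastasis-bearing brain there were 390 and 144 (heterozygous) and 85 and 35 (homozygous) microglia-like cells, and per naive brain 495, 227, 147 and 365. Their median hashtag UMIs were 224 with metastases and 119.5 in naive brains. Cx3cr1 itself stood at 1363 and 1464 corrected UMIs per 1000000 (CPM) in heterozygous and at 114 and 31.6 CPM in homozygous microglia-like cells with metastases, a log2 difference of -4.31 (SE 0.42, limma adjusted p = 0.0176). In naive microglia-like cells it was 1953 and 1852 against 75.6 and 71.4 CPM.

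Type I interferons bind a receptor made of the chains Ifnar1 and Ifnar2 and act through Jak1, Tyk2, Stat2 and Irf9, among others, on genes that carry an interferon-stimulated response element. Isg15 encodes a ubiquitin-like protein that is joined to other proteins by Uba7, Ube2l6 and Herc6 and removed by the protease Usp18, which also restrains the interferon receptor. Ifitm proteins and Bst2 (tetherin) sit in membranes, where Ifitm proteins hinder virus entry and tetherin holds budding virus particles. Microglia are among the cells of the brain that answer interferon with these genes.

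Promoters are shown because they differ in whether they hold the core of that response element. RefSeq promoter windows of 300 bases (GRCm38.p6, 250 before a start site and the rest after it) matched 8 of the 10 genes, and Usp18 and Ifi27l2a had none. A pair of cores was searched on both strands: GAAA followed after any 2 bases by GAAA (first core), and GAAA followed after any 1 base by GAAA (second core). The first was found in 4 of the 8 genes and either core in 6, against 3.99% and 7.27% of the 27025 genes with a window. Of all 32851 windows, 3.44% held the first core, 3.17% the second and 6.27% either. Capitals mark the matches, overlapping ones run together, and bases are given from 5′ to 3′ on the strand of the gene. The upstream stretches lie at chr4:156200855-156200966 (minus strand) for Isg15, chr7:140955968-140956027 (minus) for Ifitm2, chr8:71537563-71537622 (minus) for Bst2 and chr3:151749919-151749978 (minus) for Ifi44.
Isg15: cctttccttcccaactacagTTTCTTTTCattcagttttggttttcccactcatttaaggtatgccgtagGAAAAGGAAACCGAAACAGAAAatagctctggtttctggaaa
Bst2: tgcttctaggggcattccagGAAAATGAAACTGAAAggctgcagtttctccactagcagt
Ifitm2: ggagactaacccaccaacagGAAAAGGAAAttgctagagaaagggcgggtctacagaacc
Ifi44: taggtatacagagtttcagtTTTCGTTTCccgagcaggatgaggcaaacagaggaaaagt
Isg15 held 3 overlapping matches to the first core between -78 and -57 from the start (+1 is the start, with no base 0) and 1 match to the second on the opposite strand. Bst2 held 2 overlapping matches between -130 and -115. Ifitm2 held 1 match at -46, counted from a start site inside the span of the gene (chr7:140954837-140959686). In Ifitm3 and Ifi35 the matches lay just after the start, at chr7:141010721-141010750 (minus strand) and chr11:101448417-101448446 (plus strand).
Ifitm3: aaattcagGAAAAGGAAActtctgagaaac
Ifi35: aattcacaGAAATGAAAgtggaagtgaggc
Ifitm3 had a further match from 20 to 29 bases after its start. No window of Isg20 (3 windows) or Lgals3bp held either core, which says nothing of other forms of the element or of sequence outside the windows. Ifitm2 and Ifitm3 thus both hold the first core, and the values below differ between them.

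When microglia-like cells from the brains with metastases were compared, Isg15, Usp18, Ifitm3 and Ifi27l2a stood 2.3 to 3.7 times higher in homozygous than in heterozygous brains on the log2(CPM + 10) scale, and Ifitm2 did not follow them. None of the 9 genes with a mean above 10 CPM passed the adjusted threshold of 0.05, against 6 of 7374 genes tested, or 0.0814%; at an unadjusted p under 0.05 limma gave 7 of the 9, against 8.61% of genes tested. In 7 of the 9 both homozygous brains lay above both heterozygous brains, as did 21.6% of all genes tested. The median log2 difference of the 9 was 0.89, and that of all genes tested 0.011.

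Isg15 itself was 66.4 and 78.6 CPM in heterozygous and 228.0 and 175 CPM in homozygous brains. Both homozygous brains were more than double either heterozygous brain, and the log2 difference was 1.35 (SE 0.18, limma adjusted p = 0.063). Usp18, the protease that removes the Isg15 protein, was 20.5 and 29.3 against 94.8 and 72.8 CPM, a log2 difference of 1.43 (SE 0.22, limma adjusted p = 0.106). Isg20, a nuclease of RNA, was 12.3 and 20.5 against 35.7 and 41.3 CPM and its groups did not overlap (log2 difference 0.89, limma adjusted p = 0.343). Isg15 passed the threshold when genes under 50 CPM were left out (limma adjusted p = 0.0237) and with at least 100 hashtag UMIs (0.0241). It lay at 0.482 with all deposited cells, 0.510 with the authors' surface gate and 0.866 in cells of 5000 to 15000 raw UMIs. Its log2 difference ranged from 0.92 to 1.64 over these settings, and from 1.17 to 1.53 with 1 brain left out.

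Among the membrane-associated proteins, Ifitm3 was 255 and 376 CPM in heterozygous and 655 and 806 CPM in homozygous brains (log2 difference 1.20, SE 0.20, limma adjusted p = 0.122). Ifi27l2a, a gene of the Ifi27 family of small hydrophobic proteins, was 196 and 571 against 1271 and 1253 CPM. The 2 heterozygous brains lay apart from each other as well as below the homozygous pair, and the log2 difference of 1.88 (SE 0.40, limma adjusted p = 0.237) became 1.13 without heterozygous brain 1 and 2.62 without heterozygous brain 2. Bst2 was 349.6 and 505 against 706 and 757 CPM (log2 difference 0.78, limma adjusted p = 0.307). Lgals3bp, a secreted glycoprotein that binds galectin-3, was 197 and 323 against 485 and 405 CPM (log2 difference 0.79, limma adjusted p = 0.408).

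The other 3 genes overlapped between genotypes. Ifitm2, a close relative and neighbour of Ifitm3 on chromosome 7, was 91.5 and 84.5 CPM in heterozygous and 46.9 and 109 CPM in homozygous brains, which lay on either side of the heterozygous pair. Its log2 difference of -0.25 (limma adjusted p = 0.843) turned to 0.77 with the surface gate and to 0.28 without homozygous brain 1. Ifi35, a partner of Nmi, was 55.2 and 79.2 against 69.4 and 126 CPM. Ifi44 stayed between 0 and 7.51 CPM in the 4 brains and was not tested. Reads of such near-identical relatives as Ifitm2 and Ifitm3 can be split or lost in counting, so both levels are uncertain; the same holds for Ifi27l2a and its relatives.

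**Figure D1:**
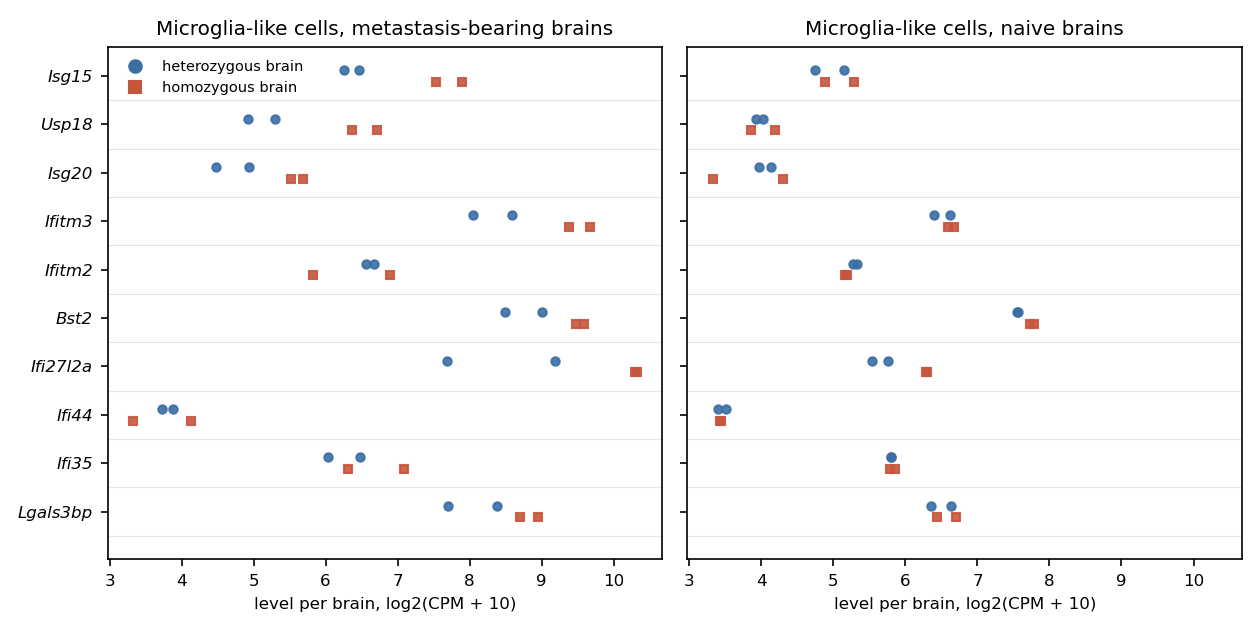
Level of each of the 10 genes in microglia-like cells, log2(CPM + 10) on the horizontal axis, with 1 point per brain (circles heterozygous, squares homozygous; 2 brains each), for metastasis-bearing brains on the left and naive brains on the right. On the left the squares lie to the right of both circles for Isg15, Usp18, Isg20, Ifitm3, Bst2, Ifi27l2a and Lgals3bp; on the right they do so for Bst2 and Ifi27l2a.

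Other values moved with the genotype in these cells and brains. The summed level of 10 monocyte and macrophage markers in microglia-like cells, for one, was 448 and 608 CPM in heterozygous and 803 and 850 CPM in homozygous brains; 5 of the 7 tested markers had positive differences and 0 passed the threshold. Summed microglia markers (9 genes) were 15030.1 and 15342 against 14294 and 13070 CPM. Krt8-high cells made up 17.1% and 8.31% of the cells of the heterozygous and 55.7% and 42.1% of those of the homozygous brains. Dendritic cell markers (7 genes) were 244 and 261 against 114 and 138 CPM, and NK markers (6 genes) 6.16 and 92.7 against 241 and 141 CPM. Of 17 marker lists, 2 were higher and 3 lower in both homozygous brains and 12 overlapped. Among the latter, neutrophil markers stood at 1072 CPM in heterozygous brain 1 and at 119 to 144 CPM in the other brains. The part of these values in the differences above was not tested.

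Within the class, transcripts were unevenly spread over cells. An Isg15 UMI was found in 35.1% and 37.5% of heterozygous and 52.9% and 48.6% of homozygous microglia-like cells, and after each cell was thinned to 5000 corrected UMIs the shares were 20.3%, 23.6%, 41.2% and 37.1%, with no cell too shallow. In naive brains the thinned shares were 6.80% to 9.04%. Medians of raw UMIs per cell were 7850.5, 8928.5, 12596 and 8335 in the metastasis-bearing and 6884 to 7522 in the naive brains. Thinning drew from corrected UMIs, with medians of 11439.5 to 12578 in metastasis-bearing and 7305 to 7606 in naive brains. It therefore did not even out the raw depths, and all cells reached 5000 on the corrected scale only. The tenth of cells with the most Isg15 held 52.8% to 61.9% of its UMIs in metastasis-bearing brains. For Ifi27l2a, the thinned shares of cells with a UMI were 34.9%, 48.6%, 74.1% and 62.9%, while in Krt8-high cells, where the gene was lowest, they were 2.6% to 10.3% at medians of 96635 to 116929 raw UMIs. Whether the latter shares came from free RNA was not tested.

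Cells with an Isg15 UMI also held more of most of the other genes. In the 4 brains with metastases, taking microglia-like cells, Usp18 was 46.7 CPM in the 137 cells with and 6.42 CPM in the 253 cells without an Isg15 UMI of heterozygous brain 1, a ratio of 7.27; in the other brains the ratio was 2.50, 8.56 and 5.11. Ifitm3 ratios were 2.25, 2.38, 2.86 and 2.31, Bst2 ratios 1.78 to 2.41, and Ifi27l2a ratios 1.73 to 3.96. Isg20, Ifi35 and Lgals3bp were likewise higher in all 4 brains. Ifitm2 ratios were 1.15 and 1.03 in heterozygous and 0.394 and 0.621 in homozygous brains. The median raw UMIs of cells with and without Isg15 were 7055 and 7954, 9419 and 8802, 16495 and 9655.5, and 8740 and 8301. These are descriptions of cells of the same brains, with no test.

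**Figure D2:**
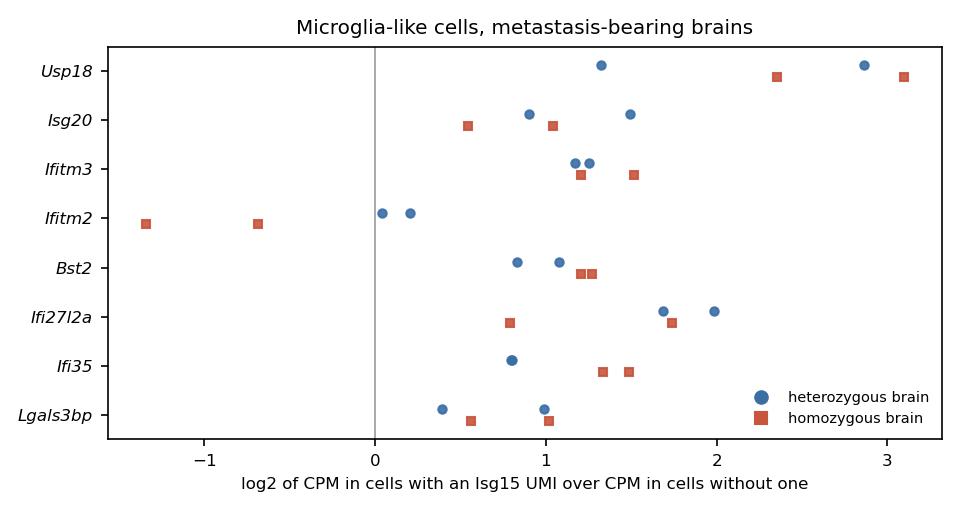
Ratio of the summed level in microglia-like cells with an Isg15 UMI to that in cells without one, on a log2 axis, for 8 genes in the 4 metastasis-bearing brains (circles heterozygous, squares homozygous). All points of 7 genes lie right of 0, and those of Ifitm2 lie on both sides; Ifi44 is left out because homozygous brain 2 had 0 UMIs.

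In naive microglia-like cells the genes were low and the genotypes close. Isg15 was 16.7 and 25.4 CPM in heterozygous and 19.6 and 28.9 CPM in homozygous brains, and the groups overlapped (log2 difference 0.14, limma adjusted p = 0.897). Ifi27l2a was the 1 member of 7 tested that passed the threshold, against 0.572% of 7693 genes tested (2 of 7 and 8.51% at an unadjusted p under 0.05): it was 44.2 and 36.3 CPM in heterozygous and 68.5 and 68.2 CPM in homozygous brains, and rose by a log2 difference of 0.64 (SE 0.13, limma adjusted p = 0.014). With all deposited cells its log2 difference was 0.08 (limma adjusted p = 0.949), with the surface gate 0.76 (0.397), and without heterozygous brain 2, homozygous brain 1 or homozygous brain 2 the adjusted p was 0.223, 0.115 and 0.0574. The summed monocyte and macrophage markers in these cells were 374 and 328 against 451 and 368 CPM and overlapped. Bst2 was 177 and 179 against 202 and 211 CPM, (log2 difference 0.20, limma adjusted p = 0.538). Bst2 and Ifi27l2a were the members with both homozygous brains higher, as were 23.4% of genes tested. Ifitm2 was 28.6 and 29.99 against 25.8 and 26.4 CPM, lower in both homozygous brains, as were 13.7% of genes tested. Its log2 difference was -0.12 (limma adjusted p = 0.899). Ifitm3 (73.8 to 91.7 CPM), Ifi35 (45.3 to 48.0 CPM) and Lgals3bp (71.7 to 94.6 CPM) overlapped between genotypes, with log2 differences from 0.03 to 0.12. Usp18, Isg20 and Ifi44 had means under 10 CPM and were not tested.

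The difference between the genotype effects of the states in microglia-like cells was tested for 7 of the genes, and none passed (limma), against 0.0142% of 7065 genes tested; 5 of the 7 had an unadjusted p under 0.05, as did 8.44% of genes tested. The log2 value, metastasis-bearing minus naive, was 1.21 for Isg15 (SE 0.28, limma adjusted p = 0.333), 1.08 for Ifitm3 (0.333), 1.23 for Ifi27l2a (0.569), 0.58 for Bst2 (0.552), 0.71 for Lgals3bp (0.572), 0.42 for Ifi35 (0.758) and -0.13 for Ifitm2 (0.949). Without metastasis-bearing heterozygous brain 1 the values were 0.49 for Ifi27l2a, 0.32 for Bst2 and 0.36 for Lgals3bp. Without metastasis-bearing heterozygous brain 2 that of Ifi27l2a was 1.98. With 1 brain left out the values ran from 1.00 to 1.41 for Isg15 and from 0.81 to 1.35 for Ifitm3. Such fits leave a lone brain in its group, so calls there are not read. The 2 tables had been corrected for depth separately, so levels of the states are given side by side with no test. With that reservation, Isg15 was 66.4 to 228.0 CPM in metastasis-bearing and 16.7 to 28.9 CPM in naive microglia-like cells. Ifi27l2a was 196 to 1271 against 36.3 to 68.5 CPM.

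In metastasis-bearing brains the genotypes were compared in 5 further classes, and Isg15 and Usp18 were higher in both homozygous brains than in both heterozygous brains in each of the 6 classes. Of 4550 genes tested in all 6 classes, 13 had this order in every class, or 0.286%, and of the 9 members tested in all of them 2 did. The 6 classes come from the same 4 brains. No member passed the threshold in any of the 5 further classes with all brains; at an unadjusted p under 0.05 limma gave 5 of 10 in monocyte/macrophage-like, 4 in T-like, 6 in NK-like, 5 in vascular-like and 8 in Krt8-high cells. The background for these, over all genes tested, was 7.66%, 4.55%, 4.03%, 10.3% and 6.07%. The share of all genes with both homozygous brains higher was 21.4%, 19.7%, 13.5%, 23.4% and 14.8% in these classes, and the members with that order numbered 8, 4, 7, 6 and 9 of 10. The adjusted threshold was passed by 0.0143%, 0%, 0.0476%, 0% and 0.025% of genes tested. Fits with 1 brain left out leave a lone brain in its genotype, so calls there are not read as results about the members.

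Monocyte/macrophage-like cells held Isg15 at 799.8 and 892 CPM in heterozygous and 1278 and 1478 CPM in homozygous brains (log2 difference 0.70, limma adjusted p = 0.228). Usp18 was 132 and 114 against 229 and 222 CPM (0.83, limma adjusted p = 0.17). Lgals3bp was 214 and 212 against 293 and 329.6 CPM (0.52, limma adjusted p = 0.228). In T-like cells Isg15 was 308 and 253 against 472 and 429 CPM (0.67, limma adjusted p = 0.148), and Ifi27l2a, 2660.3 and 1682 against 3087 and 2690.1 CPM, was barely apart between its nearest brains. The groups of Isg15 did not overlap in either class. Marker lists moved with the genotype here too. In monocyte/macrophage-like cells NK markers were 72.2 and 86.2 against 211 and 234 CPM (1 of 1 tested marker was called), dendritic markers 245 and 222 against 107 and 139 CPM, and the class's own markers 18697 and 18454 against 20299 and 22799 CPM; 4 of 17 lists were higher and 5 lower in both homozygous brains. Their neutrophil markers overlapped, with 3517 CPM in homozygous brain 2 and 359 to 832 CPM in the other brains. In T-like cells monocyte and macrophage markers were 1155 and 1168 against 1344 and 1360.2 CPM, and 3 lists were higher and 1 lower. Their part in the results was not tested.

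NK-like cells held Isg15 at 96.7 and 179 CPM in heterozygous and 300.4 and 269 CPM in homozygous brains (log2 difference 1.05, limma adjusted p = 0.353). Isg20 was 41.1 and 66.0 against 117 and 119 CPM (1.04, limma adjusted p = 0.293) and Bst2 was 324 and 409 against 538 and 571 CPM (0.59, 0.293). Vascular-like cells held Isg15 at 212 and 212 against 366 and 385 CPM (0.80, limma adjusted p = 0.211). In the same class Ifi44 was 30.5 and 48.1 against 162 and 95.5 CPM (1.47, limma adjusted p = 0.232), the largest difference of Ifi44 among the 5 classes where it was tested. In vascular-like cells microglia markers were 1559 and 1659 against 3112 and 2499.8 CPM, cycling markers 139 and 113 against 343 and 285 CPM, and mural markers 3815 and 3329 against 2736 and 2099 CPM; 7 of 17 lists were higher and 2 lower in both homozygous brains. In NK-like cells their own markers were 8062 and 9537 against 10577 and 11773 CPM and T markers 382 and 317 against 263 and 268 CPM, with 1 list higher and 3 lower. The part of these values in the differences was not tested.

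Krt8-high cells held Isg15 at 164 and 176 CPM in heterozygous and 231 and 357 CPM in homozygous brains (log2 difference 0.72, limma adjusted p = 0.746). Ifi35 was 56.5 and 61.9 against 102 and 122 CPM (0.81, limma adjusted p = 0.31), Lgals3bp 41.4 and 41.9 against 72.6 and 102 CPM (0.90, 0.376) and Bst2 837 and 1006 against 1288 and 1617 CPM (0.65, 0.476). Of 17 marker lists, 2 (mural and astrocyte) were higher and 1 (dendritic) lower in both homozygous brains, their part again not tested. In these cells Ifi27l2a alone overlapped, at 7.93 and 43.7 against 57.6 and 26.3 CPM. The log2 difference of Ifitm2 lay between -0.25 and 0.20 over the 6 classes, and its groups were apart in Krt8-high cells alone, at 247 and 283 against 298 and 314 CPM.

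**Figure D3:**
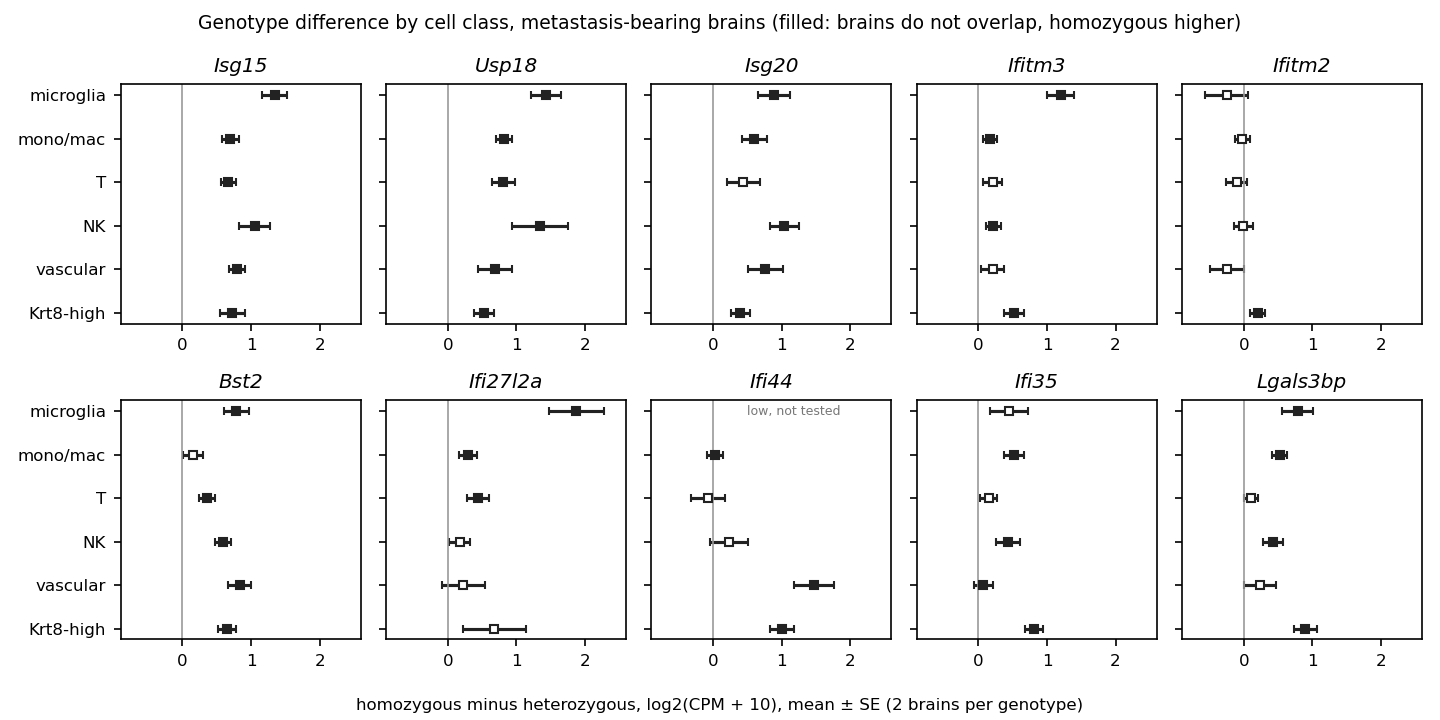
Homozygous minus heterozygous difference (mean ± SE, log2(CPM + 10), 2 brains per genotype) of each gene in 6 classes of metastasis-bearing brains; filled squares mark classes in which both homozygous brains lie above both heterozygous brains. Isg15 and Usp18 have filled squares in all 6 classes. The microglia points of Isg15 (1.35), Usp18 (1.43), Ifitm3 (1.20) and Ifi27l2a (1.88) lie to the right of their points in the other classes. The NK points of Isg15 (1.05) and Usp18 (1.34) come next for those genes.

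A further test asked, brain by brain, if the genotype effect of microglia-like cells was unlike that of another class. Against NK-like cells 2 of 9 genes passed, as did 0.405% of 5681 genes tested (7.32% at an unadjusted p under 0.05): the effect was larger in microglia-like cells by a log2 value of 0.99 for Ifitm3 (SE 0.20, limma adjusted p = 0.0263) and of 1.70 for Ifi27l2a (SE 0.35, limma adjusted p = 0.0294). Both calls were lost under each of the 8 other settings, at adjusted p between 0.0526 and 0.792, and without heterozygous brain 1; Ifitm3 also lost it without homozygous brain 2. The log2 values stayed between 0.71 and 1.20 for Ifitm3 and between 0.78 and 2.63 for Ifi27l2a. Against the other classes no member passed, where 0.0319% (monocyte/macrophage-like), 0% (T-like), 0.106% (vascular-like) and 0.103% (Krt8-high) of genes tested did. At an unadjusted p under 0.05 limma gave 5, 4, 4 and 4 of 9 members, against 6.86%, 6.57%, 7.72% and 8.26% of genes tested. There Ifitm3 effects were larger in microglia-like cells by 0.68 to 1.03 and Ifi27l2a effects by 1.20 to 1.65 on the log2 scale, with limma adjusted p from 0.0658 to 0.694. Without heterozygous brain 1 the Ifi27l2a value was 0.99 against monocyte/macrophage-like, 0.36 against T-like and 0.94 against vascular-like cells, and without heterozygous brain 2 it was 2.18, 2.51 and 2.35. Against Krt8-high cells it was 0.76 without homozygous brain 2 and 1.64 without homozygous brain 1. For Ifitm3 against T-like cells the values with a brain left out ran from 0.46 to 1.53. The Isg15 effect differed by 0.65 from monocyte/macrophage-like, 0.68 from T-like, 0.30 from NK-like, 0.55 from vascular-like and 0.62 from Krt8-high cells, at limma adjusted p from 0.572 to 0.831. These comparisons share the microglia-like values.

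The classes differed widely in level, given as the mean ± SD of the 4 metastasis-bearing brains and as a description. Isg15 was highest in monocyte/macrophage-like cells, at 1112 ± 320 CPM (SD, n = 4), above every brain of the next class, T-like cells (366 ± 102), and neighbours overlapped from there through vascular-like (294 ± 94.7), Krt8-high (232 ± 88.3), NK-like (211 ± 92.1) and microglia-like cells (137 ± 77.7). Usp18 had the same first and last classes, at 174 ± 59.5 and 54.3 ± 35.4 CPM (SD, n = 4). Isg20 was 229 ± 64.1 CPM in monocyte/macrophage-like and 226 ± 68.8 CPM in T-like cells, which overlapped, and both lay above NK-like cells (85.9 ± 38.7).

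Ifitm3 was 4743 ± 339 CPM (SD, n = 4) in monocyte/macrophage-like cells and 3400.1 ± 514 CPM in vascular-like cells, which did not overlap, and 1058 ± 256 CPM or less in the other 4 classes. Ifitm2 followed the same first 3 classes, at 1886 ± 62.0, 1018 ± 228 and 286 ± 28.5 CPM, and was lowest in microglia-like cells (83.0 ± 26.2). Over the 24 class-by-brain values, which share libraries and scaling, the Pearson correlation of the 2 genes was 0.91. Neutrophil-like cells, with 17 to 32 cells per brain and so not tested, held Ifitm2 at 3674, 3369, 3518 and 2803 CPM, above all of the 6 tested classes. In the same cells Ifitm3 was 1334 and 2563 in heterozygous and 3227 and 4138 CPM in homozygous brains. Isg15 there was 238 and 1185 against 1293 and 1437 CPM, which overlapped monocyte/macrophage-like cells at 799.8 to 1478 CPM. Heterozygous brain 1 was low for both genes.

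Ifi27l2a had another order, with T-like (2530 ± 598 CPM, SD, n = 4) and monocyte/macrophage-like cells (2303 ± 322) overlapping at the top, microglia-like cells next (823 ± 529.7), and Krt8-high cells last at 33.9 ± 21.5 CPM. Bst2 ran from 1187 ± 342 CPM in Krt8-high to 461 ± 115 CPM in NK-like cells, with all neighbours overlapping. Ifi44 was highest in vascular-like (84.0 ± 58.8) and Krt8-high cells (64.5 ± 29.1). Lgals3bp was highest in microglia-like cells, at 353 ± 123 CPM, overlapping monocyte/macrophage-like cells at 262 ± 58.7 CPM. Ifi35 lay between 82.5 ± 30.8 and 189 ± 44.0 CPM. The highest of the tested classes was monocyte/macrophage-like for 6 of the 10 genes.

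**Figure D4:**
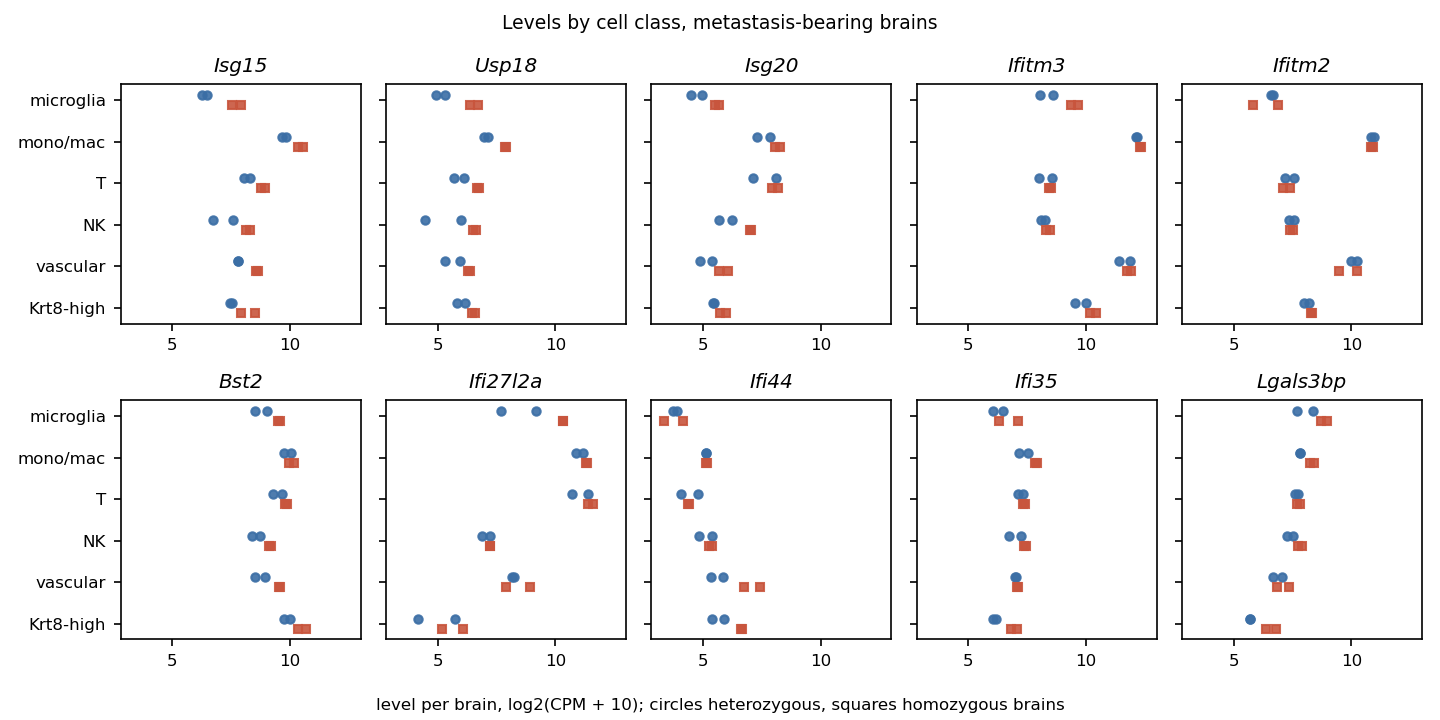
Level per brain, log2(CPM + 10), of each gene in 6 classes of metastasis-bearing brains, with circles for heterozygous and squares for homozygous brains. Monocyte/macrophage-like cells lie farthest right for Isg15, Usp18, Ifitm3 and Ifitm2, and Ifi27l2a spans the widest range, from 7.93 CPM in Krt8-high to 3087 CPM in T-like cells.

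The authors' surface gates split 2 of the classes further. In T-like cells Ifi27l2a was 4102 and 3821 CPM in the CD4+ gate of heterozygous and 6613 and 6816 CPM in that of homozygous brains. It was 1443, 1888, 2181 and 2739.6 CPM in the CD8+ gate, and 1228, 472, 853 and 1132 CPM in T-like cells with no gate name, which numbered 20, 286, 83 and 61. A further 17, 195, 27 and 40 T-like cells had another entry or none, at 2036 and 2122 against 2368 and 2347 CPM. The CD4+ gate was thus above the CD8+ gate in 4 of 4 brains, and the genotypes did not overlap within either gate but did overlap in cells with no gate name. Isg15 in the CD4+ gate was 316 and 297 against 662 and 765 CPM, and in the CD8+ gate 245 and 186 against 446 and 274 CPM. In T-like cells with no gate name it was 473 and 265 against 345 and 390 CPM, and the genotypes overlapped. The remaining T-like cells held it at 174 and 251 against 412 and 403 CPM. In monocyte/macrophage-like cells Isg15 was 852, 1214, 1502 and 1877 CPM in the Ly6C-high gate and 832, 697, 1140 and 1309 CPM in the Ly6C-low gate, higher in the first in 4 of 4 brains. The other 47, 255, 76 and 112 cells of the class, with another entry or none, held Isg15 at 657 and 716 against 1102 and 1040.0 CPM. Bst2 ran the other way in 4 of 4 brains, at 683, 698, 816 and 936 against 788, 863, 867 and 1057 CPM, and was 1248, 1595, 1593 and 1533 CPM in those other cells. The named groups held 20 to 286 cells per brain, and these splits were made after the data were seen, with no test.

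**Figure D5:**
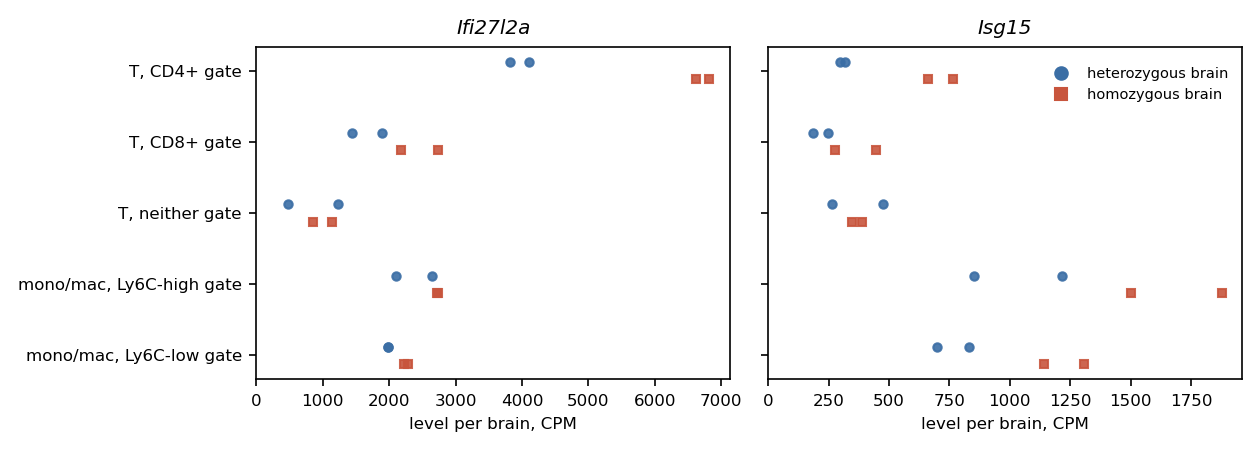
Level per brain in CPM of Ifi27l2a (left) and Isg15 (right) in T-like and monocyte/macrophage-like cells split by the authors' surface gates, with circles for heterozygous and squares for homozygous metastasis-bearing brains. Ifi27l2a lies at 3821 to 6816 CPM in the CD4+ gate and at 2739.6 CPM or less in the CD8+ gate and in T-like cells with no gate name; cells with another entry or none are not drawn.

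Of 25 other genes of the pathway and relatives of the members (conjugation enzymes, receptor and signalling partners, gene family members), 23 were in the metastasis and 22 in the naive table. None passed the threshold in any of the 13 comparisons (limma). At an unadjusted p under 0.05, 3 were higher and 2 lower in microglia-like cells with metastases, and 1 and 1 in naive ones, of 19 tested in each, against 8.61% and 8.51% of all genes tested in either direction. For microglia-like cells with metastases, 13 of 19 tested had positive differences with a median of 0.15, where all genes had 0.011; those of smallest p were Lgals9 (0.71), a galectin, Ifi27 (-0.59), Trim25 (0.66), a ligase, and Ube2l6 (0.80), the Isg15-conjugating enzyme, at limma adjusted p from 0.175 to 0.488. The receptor chains Ifnar1 and Ifnar2 stood at -0.07 and -0.08, Stat2 at 0.03 and Irf9 at 0.36. In naive microglia-like cells 11 of 19 were positive, with Tyk2 (0.41), Ube2l6 (0.37) and Lgals9 (0.16) among those of smallest p. For the difference between states the leading genes were Lgals9 (0.55), Ifi27 (-0.43), Lgals3 (-0.56) and Trim25 (0.50).

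In the further classes the positive and tested genes of that list numbered 15 of 20 (monocyte/macrophage-like), 11 of 20 (T-like), 11 of 18 (NK-like), 13 of 18 (vascular-like) and 10 of 14 (Krt8-high). At an unadjusted p under 0.05 limma gave 6 higher and 1 lower, 0 and 2, 1 and 0, 4 and 1, and 3 and 0 in these classes, against 7.66%, 4.55%, 4.03%, 10.3% and 6.07% of all genes tested in either direction; the difference between states gave 1 and 1, and those between classes at most 1 higher and 2 lower each. Leading genes were Herc6 (0.57), Stat2 (0.50), Ifitm1 (-0.57) and Lgals9 (0.46) in monocyte/macrophage-like cells, Ifitm1 (-0.65), Ifi27 (-0.45), Trim25 (0.39) and Ube2l6 (0.38) in T-like cells, and Herc6 (1.08), Uba7 (0.67) and Ifitm10 (-0.43) in NK-like cells. In vascular-like cells they were Lgals9 (1.12), Irf9 (0.58), Uba7 (0.57) and Ube2l6 (0.66), and in Krt8-high cells Lgals9 (0.51), Nmi (0.45), Irf9 (0.38) and Arih1 (-0.27). For the effect in microglia-like cells minus that in another class, the leading genes were Trim25 (0.69), Ifi27 (-0.57) and Lgals3 (-0.59) against monocyte/macrophage-like cells, and Lgals9 (0.68), Ifitm10 (-0.76) and Tyk2 (0.45) against T-like cells. They were Lgals9 (0.49), Herc6 (-0.62), Ifi27 (-0.38) and Trim25 (0.50) against NK-like cells, and Lgals3 (-0.81), Trim25 (0.59), Lgals9 (-0.41) and Stat2 (-0.47) against vascular-like cells. Against Krt8-high cells they were Ifi27 (-0.80), Lgals3 (-0.66) and Ube2l6 (0.59).

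Outside the 10 genes, those whose levels ran most like Isg15 over the 24 class-by-brain values of metastasis-bearing brains were Cmpk2 (Pearson r = 0.93), Usb1 (0.91), Trps1 (0.90), Rsad2 (0.88) and Plin2 (0.87), among 8471 genes compared. Among the members r with Isg15 was 0.90 for Usp18, 0.80 for Isg20, 0.79 for Ifi35, 0.69 for Ifitm2, 0.64 for Ifitm3, 0.62 for Bst2, 0.54 for Ifi27l2a, 0.24 for Lgals3bp and 0.23 for Ifi44. These values are a description over points that share brains, libraries and scaling.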

How the data were processed

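RNA, antibody tags and hashtags of 8 brains were sequenced from 1 pool. Per the submitters' processing notes, Cell Ranger 3.1, Seurat 3.1.1 and genome build mm10 were used; steps beyond that are not given in the sources used here. The authors deposited, per cell and gene, the natural log of 1 plus a depth-corrected UMI count, fitted separately per table; the exponential minus 1 was whole (relative tolerance 1e-06) for 100% of nonzero values. The deposited metadata gave raw UMI counts, clusters, hashtags, genotypes and surface gates per cell; the gate used for microglia was CD45-low CD11b-positive in the metastasis and the microglia gate in the naive table. No further doublet call was made.

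Corrected UMIs were summed per brain and class (at least 20 cells in every brain), scaled to 1000000 (CPM), and log2(CPM + 10) of genes with a mean above 10 CPM was fitted with limma 3.58.1 (R 4.3.3; eBayes with trend), homozygous minus heterozygous, with Benjamini-Hochberg adjustment over all genes tested and a threshold of 0.05. Effects of classes or states were compared as differences within the same fit. The brain is the replicate (2 per genotype and state). The steps were tested on simulated data. Sums and figures were made in Python 3.11.15 (matplotlib 3.10.9).

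Named are all 10 members, Cx3cr1, the 4 pathway genes of smallest p per comparison and the 5 genes most like Isg15; 1 pathway gene is counted but not reported here by name. Members, lists and tests were chosen with earlier results of these data known. Pseudocount, filter, scaling, variance trend, cells used and each brain left out were varied; the hashtag minimum and the splits by T cell and monocyte gates were added after the data were seen.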

Additional observations from a re-analysis of the deposited data

Results flagged for a closer look

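Ifitm3 and Ifi27l2a were called in the main fit for a larger genotype effect in microglia-like than in NK-like cells of metastasis-bearing brains. The log2 values were 0.99 and 1.70. Both calls were lost under every other setting with all brains, as given above, so the difference between the classes is not settled.

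Isg15 appeared in choroid plexus-like cells, a class too small to compare. In metastasis-bearing brains the pooled level was 612 CPM over 37 cells, with 57.1 and 1067 CPM in the heterozygous brains (11 and 17 cells) and 512 and 314 CPM in the homozygous brains (7 and 2 cells). In naive brains 0 Isg15 UMIs were found in 22 cells, which allows up to 12.5 CPM (3 counts over the group, counting error only). Heterozygous brain 1 stood at 57.1 CPM, and the 2 states were corrected separately. Groups of 2 brains are too small for a check of single brains far from the rest.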

How the results depend on the processing

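Of 962 refits of 77 member values, 827 kept direction and side of the threshold, 83 gained and 25 lost a call, and 27 changed sign. Isg15 and Usp18 were apart in 6 of 6 classes with all deposited cells, with the hashtag minimum and with median-ratio scaling. They were also apart in 4 of the 4 classes with enough cells of 5000 to 15000 raw UMIs. Pseudocount, filter and variance trend leave the order of the brains as it is, and leaving out a brain cannot make separate groups overlap. Those settings therefore could not change this result. Members called in microglia-like cells with metastases (0) became 1 with the filter at 50 CPM, beside 10 of 2662 genes tested. They became 2 with at least 100 hashtag UMIs, beside 14 of 7396 genes tested. With a brain left out the calls were 0 to 4 in monocyte/macrophage-like, 0 to 6 in T-like, 0 to 7 in NK-like (1 with all deposited cells), 0 to 1 in vascular-like and 1 to 8 in Krt8-high cells, where the lone brain is assumed to vary like the other genotype. In naive microglia-like cells 1 call became 0 with all deposited cells, no variance trend or the surface gate. In those fits 23 of 7727, 2 of 7693 and 7 of 7561 genes tested were called. For the difference of states 0 stayed 0 under the other settings with all brains. For microglia-like minus NK-like, 2 calls became 0 with all deposited cells, either filter, hashtag minimum, median-ratio scaling, no trend, pseudocount 1 or gate. Under these settings 0 to 10 of all genes tested were called, beside 23 of 5681 in the main fit. The difference from vascular-like cells went from 0 calls to 1 with the filter at 50 CPM, beside 10 of 1978 genes tested. Differences from monocyte/macrophage-like, T-like and Krt8-high cells stayed at 0 calls under the other settings with all brains.

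Signs changed for Ifitm2 most often. Ifitm2 turned to 0.77 (metastasis-bearing microglia-like), 0.052 (naive) and 0.72 (difference of states) with the surface gate, to 0.13 in T-like cells of 5000 to 15000 raw UMIs, and in NK-like cells to 5.2e-05 with the hashtag minimum and 0.060 with median-ratio scaling. With a brain left out it ranged from -0.78 to 0.28 (microglia-like), -0.066 to 0.028 (monocyte/macrophage-like), -0.30 to 0.090 (T-like), -0.12 to 0.10 (NK-like), -0.62 to 0.13 (vascular-like) and -0.66 to 0.41 (difference of states). In naive microglia-like cells Ifi35 turned to -0.0090 with median-ratio scaling and -0.044 with the gate, and with a brain left out its lowest and highest were -0.0063 and 0.063, those of Isg15 -0.061 and 0.34 and those of Lgals3bp -0.055 and 0.22. For microglia-like minus NK-like, all deposited cells gave -0.082 for Isg15 and -0.18 for Usp18, and leaving out a brain -0.0080 to 0.60 and -0.49 to 0.67. The causes were not tested.

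All genes called in microglia-like cells numbered 6 in metastasis-bearing (0 to 14 under other settings, 33 to 78 with a brain left out) and 44 in naive brains (2 to 49, 15 to 57), 1 for the difference of states (0 to 1, 0 to 320) and 23 against NK-like cells (0 to 10, 15 to 104). In the other classes the counts were monocyte/macrophage-like 1 (at most 186 with a brain left out), T-like 0 (239), NK-like 3 (930), vascular-like 0 (127) and Krt8-high 2 (2021). Microglia-like minus monocyte/macrophage-like gave 2 (at most 176), minus T-like 0 (10), minus vascular-like 7 (417) and minus Krt8-high 6 (23). Krt8-high cells of 5000 to 15000 raw UMIs were too few to fit, as were NK-like cells. With 2 brains per genotype and as few as 35 cells, low genes such as Ifi44 in microglia-like cells could not be tested. No paired analysis was possible because brains of the genotypes share no pairing label.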
